A study of Homo sapiens with 3 samples.

Results

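The 108 captured fragments described here lie around PCAT1 in the breast cancer risk region 8q24.21, on chromosome 8 from 127886760 to 128189517 (GRCh37). They were taken by position as the captured HindIII fragments that start at or before a fixed coordinate in the deposited fragment list, and make up 108 of the 192 captured fragments of 8q24.21 and of the 1077 captured in all. Contacts were counted by Capture Hi-C, in which fixed chromatin is cut with HindIII, ends held near each other are joined, and the joined pairs that contain a chosen fragment are pulled out by hybridisation. The series set 2 breast cancer lines against 1 lymphoblastoid line to ask which distant sequences the risk regions touch in breast cells. BT483 came from a primary invasive ductal carcinoma, was grown with insulin and was lysed with trypsin at 0.25%. SUM44 was derived from malignant pleural fluid in breast cancer, was grown with estradiol at 1 nM and was lysed with a dounce homogeniser. GM06990 is an immortalised B-lymphocyte line, also lysed with a dounce. All 3 lines were fixed in 2% formaldehyde for 5 min and carried no other stated treatment, and each is a single line that stands for its tissue. The lysis of BT483 and its line identity cannot be told apart. Expression was not measured, so the labelled cell types could not be set against marker genes.

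As background, 8q24.21 is a wide stretch with few protein-coding genes, in which inherited variants affect the risk of several cancers. PCAT1 is a long non-coding RNA first described in prostate cancer, where it is linked to proliferation. The nearest well-known protein-coding gene on the telomeric side is MYC, a transcription factor that drives growth, followed by PVT1, a long non-coding RNA gene often gained together with MYC. In the RefSeq gene order of GRCh38.p14, PCAT1 lies between LRATD2 on the centromeric side and the non-coding genes PCAT2, PRNCR1, CASC19, CCAT1 and CASC8 on the way to MYC. No annotation of the build of the counts was used, so targets are given by position and no gene was assigned to them. Physical contact between such non-coding stretches and a promoter is one way in which distal regulatory sequence can act, and contact counts fall with distance along the chromosome in all cells.

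Each fragment is called here by its number in the deposited list, from fragment 13 at the centromeric end to fragment 120 at the telomeric end. Their lengths ran between 33 and 14030 bp with a median of 1967 bp. Contacts were summed per fragment over targets within 5.0 Mb of the captured region, separately on its centromeric and telomeric sides, with contacts between captured fragments left out. The telomeric targets therefore began 581.2 kb beyond fragment 13 and 281.2 kb beyond fragment 120, whereas the centromeric ones began next to fragment 13 and 302.2 kb from the start of fragment 120. Both replicates of a line were kept as separate libraries (n = 2 per line). Nothing said that replicates were separate cultures, so p-values measure only the spread between these libraries, which may be technical. Read pairs carried no molecular identifiers, so every interval on a count covers counting error only.

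Depth set the limits of what could be compared. In replicates 1 and 2, the members together had 43735 and 218187 contacts within 5.0 Mb in BT483, 221812 and 197969 in SUM44, and 73843 and 62385 in GM06990. Their trans contacts, those with other chromosomes, numbered 225423 and 779278 in BT483, 251647 and 256513 in SUM44, and 161397 and 348834 in GM06990. The trans count of a fragment stands for how well it was captured and how deeply the library was read. It varied widely between members: fragment 71 (128065237 to 128066199) had 4353 and 21276 trans contacts in BT483, 7134 and 7831 in SUM44, and 3376 and 7329 in GM06990. Fragment 43 (127995117 to 127996937) had 0 in both breast lines and 0 and 2 in GM06990, with no contact in cis in any of the 6 libraries. Fragments 80, 81, 101 and 107 did not reach 50 contacts on both sides in any line, so 103 of the 108 members entered the comparison of sides. Cis contacts per trans contact differed between length classes. The 22 members of 4000 bp and over had 24.7 and 38.4 contacts within 5.0 Mb per 100 trans contacts in BT483, 135.9 and 133.6 in SUM44, and 71.5 and 27.0 in GM06990. The 23 members under 500 bp had 13.1 and 27.3 in BT483, 80.5 and 61.6 in SUM44, and 40.0 and 13.6 in GM06990. The 32 members in the next class up, from 500 bp to under 2000 bp, did not lie between these classes in every library, with 18.2 and 24.1 in BT483, 69.9 and 59.2 in SUM44, and 36.2 and 15.0 in GM06990.

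The members pointed more to the telomeric side than to the centromeric one in every line, and less so in the breast lines than in the lymphoblastoid line. Summed over the members, telomeric contacts were 1.96 and 1.77 times the centromeric ones in BT483, 1.76 and 1.75 times in SUM44, and 2.37 and 2.18 times in GM06990. Neither breast line overlapped GM06990 in this summed ratio. The ratio of both sides of 1 fragment in 1 library does not depend on capture efficiency or depth. Member by member, its median over the 103 was 1.96 and 1.72 in BT483, 1.76 and 1.75 in SUM44, and 2.22 and 2.09 in GM06990. Single members ran between 1.29 and 3.25 in BT483 replicate 1, 1.02 and 2.28 in BT483 replicate 2, 1.26 and 2.26 in SUM44 replicate 1, 1.36 and 2.16 in SUM44 replicate 2, 1.51 and 5.57 in GM06990 replicate 1, and 1.38 and 6.86 in GM06990 replicate 2. The upper end thus reached further in GM06990 than in either breast line. Both GM06990 maxima were those of fragment 119, on 7 centromeric contacts in each replicate. Fragment 118, on 95 and 100 centromeric contacts, had 5.45 and 4.26 in GM06990.

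In a test of this balance with edgeR's quasi-likelihood F test, 20 of 103 members had a lower telomeric to centromeric ratio in BT483 than in GM06990 at a Benjamini-Hochberg adjusted p under 0.05, and 0 had a higher one. Over all 1011 captured fragments tested, 13% were called lower and 0.593% higher in that comparison. The median log2 difference was -0.28 over the members and -0.18 over all fragments. Below 0 were 95 of the 103 members and 718 of all 1011 fragments. Both BT483 replicates were below both GM06990 replicates at 59 members and above them at 1. Against GM06990, SUM44 had 27 of 103 members called lower and 0 higher, where 11.9% of all fragments were called lower and 5.64% higher. Here the median was -0.29 over the members and -0.03 over all fragments. Below 0 were 101 members and 538 of all 1011 fragments. Both SUM44 replicates were below both GM06990 replicates at 81 members and above them at 0. Non-overlap of replicates was counted over the members only in both comparisons, so no share over all fragments stands beside it. The 2 comparisons share their GM06990 libraries and are not independent. The counts depended on single libraries: without GM06990 replicate 1, 3 members were called lower in BT483 and 4 in SUM44, and with DESeq2 in place of edgeR 10 and 14.

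The breast lines were not told apart in this respect. No member was called between BT483 and SUM44 with edgeR or DESeq2 at an adjusted p under 0.05, and 3 had an unadjusted p under 0.05 with edgeR. Over all captured fragments, 9.79% were called lower in BT483 than in SUM44 and 0.297% higher. The smallest adjusted p among the members was that of fragment 42 (127981952 to 127995116, 0.119). Its telomeric to centromeric ratio was 2.40 and 1.802 in BT483 and 1.26 and 1.38 in SUM44, a log2 difference of 0.56 (SE 0.22), on 60 and 182 telomeric contacts in BT483 and 232 and 231 in SUM44. Fragments 24 (127919285 to 127926717) and 23 (127919004 to 127919284) came next, with log2 differences of 0.31 (SE 0.13, adjusted p = 0.153) and 0.30 (SE 0.13, adjusted p = 0.184) in the same edgeR fit. Without BT483 replicate 2, 5 members were called higher in BT483 than in SUM44.

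Over all distances, most of the called members lay at the telomeric end. The members were divided by order into 6 blocks of 18, the most telomeric of which ran from 128148327 to 128189517. In it the summed telomeric contacts were 2.24 and 1.95 times the centromeric ones in BT483, 1.90 and 1.91 times in SUM44, and 3.67 and 3.08 times in GM06990. In that block 13 of 17 tested members were called lower in BT483 than in GM06990 and 15 of 17 in SUM44, with median log2 differences of -0.69 and -0.86. The block from 128100733 to 128148326 had 3 and 6 of 17 called, with ratios of 1.87 and 1.73 in BT483, 1.75 and 1.71 in SUM44, and 2.37 and 2.18 in GM06990. The block from 128053950 to 128100732 had 4 and 3 of 16 called. The block from 127946142 to 128010993 had 0 of 17 called in both comparisons, and so did the 18 tested members of the block from 128010994 to 128053949, which holds the PCAT1 position. Its ratios were 1.96 and 1.66 in BT483, 1.74 and 1.73 in SUM44, and 2.05 and 1.92 in GM06990, so that one BT483 replicate overlapped those of GM06990. The most centromeric block had 0 of 18 called in BT483 and 3 of 18 in SUM44. The division into blocks was made after the values had been seen. The difference between blocks was not tested.

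The member with the PCAT1 position, fragment 54 (128023685 to 128027127), was not called in either comparison. It had 416 and 2062 telomeric contacts in BT483, 1612 and 1355 in SUM44, and 466 and 414 in GM06990. On the centromeric side it had 197 and 1208 in BT483, 913 and 774 in SUM44, and 204 and 208 in GM06990. The ratios of both sides were 2.11 and 1.71 in BT483, 1.77 and 1.75 in SUM44, and 2.28 and 1.99 in GM06990, and BT483 overlapped GM06990. The log2 differences from GM06990 were -0.21 (SE 0.15, adjusted p = 0.352, edgeR) in BT483 and -0.28 (SE 0.14, adjusted p = 0.18, edgeR) in SUM44. Fragment 71, the most deeply captured member, had log2 differences of -0.16 (SE 0.16, adjusted p = 0.53, edgeR) in BT483 and -0.17 (SE 0.16, adjusted p = 0.476, edgeR) in SUM44.

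The members with the smallest adjusted p lay in a run at the telomeric end. Fragment 118 (128188021 to 128188466) had 137 and 1034 telomeric contacts in BT483, 1094 and 958 in SUM44, and 518 and 426 in GM06990. Against these stood 61 and 454 centromeric contacts in BT483, 523 and 494 in SUM44, and 95 and 100 in GM06990. Its ratios were 2.25 and 2.28 in BT483, 2.09 and 1.94 in SUM44, and 5.45 and 4.26 in GM06990, with no overlap. The log2 difference from GM06990 was -1.09 (SE 0.17, adjusted p = 0.000482, edgeR) in BT483 and -1.26 (SE 0.16, adjusted p = 3.76e-05, edgeR) in SUM44. Fragment 114 (128182973 to 128186396) had ratios of 1.83 and 1.93 in BT483, 1.94 and 1.98 in SUM44, and 3.74 and 3.41 in GM06990. Its log2 differences from GM06990 were -0.91 (SE 0.14, adjusted p = 0.000442, edgeR) in BT483 and -0.86 (SE 0.13, adjusted p = 0.000229, edgeR) in SUM44.

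The short fragments between them also had GM06990 highest. Fragment 115 (128186397 to 128186631) had ratios of 1.96 and 1.87 in BT483, 1.82 and 2.16 in SUM44, and 3.48 and 3.98 in GM06990, and was lower in BT483 by a log2 difference of -0.98 (SE 0.16, adjusted p = 0.00055, edgeR). Fragment 116 (128186632 to 128186820) had ratios of 2.16 and 1.98 in BT483, 1.85 and 1.98 in SUM44, and 4.64 and 3.31 in GM06990, and was lower in SUM44 by a log2 difference of -1.02 (SE 0.15, adjusted p = 0.000229, edgeR). In both fragments the breast lines lay below GM06990 in every replicate. Fragment 120 (128188986 to 128189517), the last member, was lower in SUM44 by a log2 difference of -1.18 (SE 0.17, adjusted p = 0.000229, edgeR) and in BT483 by -0.98 (SE 0.18, adjusted p = 0.00169, edgeR). Without GM06990 replicate 1, fragment 116 in BT483 (adjusted p = 0.0857) and fragment 120 in BT483 (0.121) and SUM44 (0.0531) were no longer called by edgeR, and fragment 120 in BT483 was not called without BT483 replicate 2 either (0.0899). The largest difference, in fragment 119 (128188467 to 128188985), was -1.64 in BT483 (SE 0.46, adjusted p = 0.0225, edgeR) and rested on 7 centromeric contacts in each GM06990 replicate. At the other end, fragment 13 (127886760 to 127889453) had ratios of 1.96 and 2.13 in BT483, 1.86 and 1.98 in SUM44, and 2.78 and 2.66 in GM06990. Its log2 difference was -0.39 (SE 0.14, adjusted p = 0.0747, edgeR) in BT483 and -0.51 (SE 0.13, adjusted p = 0.0117, edgeR) in SUM44, and the SUM44 call ended when either replicate of SUM44 or of GM06990 was left out (adjusted p between 0.0855 and 0.183, edgeR).

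Over all distances, the position that closes the list of members marks no visible step in these values. Just inside it, fragment 120 had ratios of 3.25 and 2.03 in BT483, 2.02 and 2.08 in SUM44, and 5.02 and 4.28 in GM06990. Just outside it, fragment 121 (128189518 to 128192177) had 2.86 and 2.18 in BT483, 2.07 and 2.07 in SUM44, and 4.41 and 3.87 in GM06990. The 84 captured fragments beyond the members, from 128189518 to 128470692, had summed ratios of 2.60 and 2.03 in BT483, 2.25 and 2.24 in SUM44, and 3.87 and 3.46 in GM06990. Of these 84, 70 were called lower in BT483 than in GM06990 and 68 in SUM44, with a median log2 difference of -0.71 in both. The difference between members and the fragments beyond them was not tested.

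When both sides were read over the same distances, from 0.8 to 5.0 Mb, calls in BT483 spread over all blocks of members. In SUM44 the most telomeric block had the most calls and the most centromeric block had none. At these distances 61 of 102 members were called lower in BT483 than in GM06990 (edgeR, adjusted p under 0.05; 20.1% of all fragments) and 25 of 102 in SUM44 (5.78% of all fragments), with 0 higher in BT483 (2.03% of all) and in SUM44 (3.04% of all). The median log2 difference over the members was -0.55 in BT483 and -0.41 in SUM44. From the most centromeric to the most telomeric block, the members called lower in BT483 were 7 of 18, 10 of 16, 10 of 18, 11 of 16, 10 of 17 and 13 of 17, so the block with the PCAT1 position had 10. In SUM44 they were 0, 2, 3, 4, 5 and 11 of the same numbers. Of the 84 fragments beyond the members, 0 were called lower in either line with edgeR, where 5 in BT483 and 11 in SUM44 had an unadjusted p under 0.05 in either direction, and 5 were called higher in SUM44. Their medians were -0.04 and 0.11. Fragment 120, the last member, was called lower in both lines (log2 differences of -0.60 in BT483 and -0.54 in SUM44). Fragment 121, just beyond, was called in neither (-0.26 and -0.29). The minimum of 0.8 Mb was measured from each fragment. It therefore left out more of the near telomeric targets for the fragments beyond than for the members, and the 2 groups were read over different targets. Distance bands within this range differed. Between 0.8 and 1.6 Mb, telomeric contacts of the members were 1.597 and 1.82 times the centromeric ones in BT483, 1.44 and 1.497 times in SUM44, and 3.52 and 3.36 times in GM06990, with no overlap. The fragments beyond the members had the same order of breast lines and GM06990 there, at 1.58 ± 0.11 times in BT483, 1.39 ± 0.01 times in SUM44 and 4.05 ± 0.04 times in GM06990 (SD, n = 2 each), so this gap was not particular to the members. Between 1.6 and 3.2 Mb they were 3.45 and 2.61 times in BT483, 3.41 and 3.40 times in SUM44, and 4.12 and 2.97 times in GM06990, and the lines overlapped. Between 3.2 and 5.0 Mb they were 1.87 and 1.41 times in BT483, 2.19 and 2.09 times in SUM44, and 1.81 and 1.63 times in GM06990, where SUM44 was the highest. In these outer bands the fragments beyond the members had GM06990 lowest. Between 1.6 and 3.2 Mb they had 2.33 and 1.92 times in BT483, 2.78 and 2.84 times in SUM44, and 1.41 and 1.25 times in GM06990. Between 3.2 and 5.0 Mb they had 1.77 and 1.14 times in BT483, 1.84 and 1.83 times in SUM44, and 0.788 and 0.776 times in GM06990. Fragment 54, which had not been called over all distances, was called lower in BT483 at matched distances by a log2 difference of -0.48 (SE 0.18, adjusted p = 0.0464, edgeR), and was not called in SUM44 (-0.30, SE 0.17, adjusted p = 0.249, edgeR).

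Shares of the contacts within 5.0 Mb differed in direction between bands of targets. Between 128969120 and 129471859, 0.5 to 1.0 Mb beyond the telomeric edge of the captured region, lay 8.02% and 10.05% of the members' contacts in BT483, 7.75% and 7.97% in SUM44, and 14.80% and 14.74% in GM06990. Between 128720408 and 128969119 lay 5.94% and 5.97% in BT483, 5.24% and 5.31% in SUM44, and 7.97% and 8.62% in GM06990. Both breast lines were below GM06990 in each replicate of these bands. The fragments beyond the members had the same order, so it was not particular to the members. Between 128969120 and 129471859 they had 7.63% and 10.04% in BT483, 7.09% and 7.02% in SUM44, and 15.62% and 16.01% in GM06990. Between 128720408 and 128969119 they had 5.96% and 6.17% in BT483, 5.09% and 5.17% in SUM44, and 11.71% and 12.16% in GM06990. In the most telomeric block of members the first band held 8.70% and 10.83% in BT483, 7.38% and 7.47% in SUM44, and 18.76% and 18.75% in GM06990. The second held 6.66% and 6.15% in BT483, 5.17% and 5.48% in SUM44, and 12.10% and 12.28% in GM06990. Over all members, the other telomeric bands did not have GM06990 highest in both replicates. Between 129471860 and 130470735 the members had 17.96% and 17.91% in BT483, 19.48% and 19.34% in SUM44, and 20.30% and 17.12% in GM06990. The replicates of GM06990 spanned both breast lines there. Between 130470736 and 133470606 lay 20.9% and 19.1% in BT483, 18.5% and 18.2% in SUM44, and 15.7% and 17.0% in GM06990, with GM06990 lowest. Nearest to the telomeric edge, between 128470693 and 128720407, lay 13.4% and 10.8% in BT483, 12.8% and 12.8% in SUM44, and 11.5% and 11.1% in GM06990, where BT483 and GM06990 overlapped and SUM44 was above GM06990. In the most telomeric block of members that band held 15.7% and 12.2% in BT483, 13.9% and 14.3% in SUM44, and 19.3% and 18.2% in GM06990, with GM06990 highest. On the centromeric side the bands differed as well. Between 125890770 and 126887667 lay 7.70% and 8.73% in BT483, 7.65% and 7.60% in SUM44, and 5.73% and 6.94% in GM06990. Both breast lines were above GM06990 there. The fragments beyond the members did not have that order. They had 6.76% and 8.16% in BT483, 6.41% and 6.28% in SUM44, and 6.75% and 7.75% in GM06990. Between 126887668 and 127387999, 0.5 to 1.0 Mb from the centromeric edge, lay 6.37% and 6.80% in BT483, 7.78% and 7.59% in SUM44, and 4.94% and 4.57% in GM06990, with both breast lines above GM06990. This order was not particular to the members. The fragments beyond them had 5.35% and 5.89% in BT483, 7.07% and 6.89% in SUM44, and 2.07% and 1.95% in GM06990. Between 127388000 and 127639934 lay 3.49% and 3.95% in BT483, 5.07% and 5.21% in SUM44, and 3.81% and 3.76% in GM06990, and BT483 overlapped GM06990. Between 122887196 and 125890769 lay 9.30% and 11.1% in BT483, 7.97% and 7.99% in SUM44, and 6.93% and 8.62% in GM06990, and SUM44 overlapped GM06990. Nearest to the centromeric edge, between 127639935 and 127886759, lay 6.88% and 5.61% in BT483, 7.78% and 7.98% in SUM44, and 8.28% and 7.51% in GM06990, and SUM44 and GM06990 overlapped.

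Levels per trans contact differed between libraries mostly through the library as a whole. Per 100 trans contacts, the members had 12.85 and 17.88 telomeric contacts in BT483, 56.19 and 49.11 in SUM44, and 32.17 and 12.27 in GM06990. On the centromeric side they had 6.55 and 10.12 in BT483, 31.96 and 28.07 in SUM44, and 13.58 and 5.62 in GM06990. SUM44 was the highest in both replicates, while the replicates of GM06990 lay further apart than those of either breast line and spanned BT483 on both sides. Scaled to trans contacts and tested by edgeR, 95 of 103 members were higher in SUM44 than in GM06990 on the centromeric side (86% of all fragments) and 54 of 104 on the telomeric side (73.6% of all fragments). The median log2 differences were 1.71 and 1.35 over the members, against 1.66 and 1.63 over all fragments. Against SUM44, 100 of 103 members were lower in BT483 on the centromeric side (73.5% of all fragments) and 99 of 104 on the telomeric side (85.3%). All 4 of these counts became 0 when any replicate of BT483 or SUM44 was left out, and with cis totals in place of trans contacts. Between BT483 and GM06990, edgeR and DESeq2 called 0 members on either side, as 0% of all fragments were called, with 0 and 2 members at an unadjusted p under 0.05 by edgeR on the centromeric and telomeric sides.

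On the centromeric side, 48 members shared the smallest adjusted p in SUM44 against GM06990 (0.0319, edgeR), and the largest log2 differences among them were those of fragments 27, 26 and 103. Fragment 27 (127936533 to 127936654) had 290 and 270 centromeric contacts on 541 and 646 trans contacts in SUM44, and 42 and 48 on 266 and 876 in GM06990, a log2 difference of 2.21 (SE 0.71). On the telomeric side 3 members shared that adjusted p, fragments 57, 69 and 67, led by fragment 57 (128031340 to 128035024) with 897 and 959 contacts on 1299 and 1203 trans contacts in SUM44, and 225 and 179 on 675 and 1612 in GM06990, a log2 difference of 1.75 (SE 0.70, edgeR). Between BT483 and SUM44 the largest difference was in fragment 42, with 25 and 101 centromeric contacts on 445 and 1347 trans contacts in BT483, and 184 and 167 on 401 and 375 in SUM44, a log2 difference of -2.77 (SE 0.72, adjusted p = 0.013, edgeR). Between BT483 and GM06990 all 104 members shared 1 adjusted p on the telomeric side, and fragment 113 (128171973 to 128182972) was among the 3 largest log2 differences, with 603 and 1585 contacts on 3112 and 5129 trans contacts in BT483, and 1087 and 1066 on 1194 and 2944 in GM06990. Its log2 difference was -1.34 (SE 0.63) with an adjusted p of 1.00 by edgeR.

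Once each library was also centred on its median over all fragments, the breast lines differed from GM06990 mostly on the telomeric side of the members. With centring, 23 of 104 members were lower in BT483 than in GM06990 on the telomeric side (edgeR; 14.8% of all fragments) and 2 of 103 on the centromeric side (4.33%). In SUM44, 11 of 104 were lower on the telomeric side (5.22% of all fragments) and 0 of 103 on the centromeric side (0.688%), where 3 had an unadjusted p under 0.05. The telomeric difference was not particular to the members. Of the 84 fragments beyond them, the same centred fit called 53 lower for BT483 and 27 for SUM44, and 0 higher for either line. Their median log2 differences from GM06990 were -0.61 and -0.37, against -0.35 and -0.25 over the members. No member was higher than in GM06990 on either side in BT483 (16% of all fragments centromeric, 6% telomeric) or in SUM44 (0.688% and 0.492%). Between BT483 and SUM44, 3 members were lower on the centromeric side (0.983% of all fragments) and 2 higher on the telomeric side (4.13%). Fragment 113 was among those called, lower in BT483 by a log2 difference of -1.20 (adjusted p = 0.000157, edgeR). Single libraries moved these counts. On the telomeric side, BT483 had 36 members lower without BT483 replicate 1 and 10 without GM06990 replicate 1. SUM44 had 24 without either BT483 replicate, 1 without SUM44 replicate 1 and 0 without SUM44 replicate 2.

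Target windows of 50 kb, with counts summed over all members, located these differences. Scaled to trans contacts alone, edgeR called 0 of the 202 windows between BT483 and GM06990 (0% of all windows), with 0 at an unadjusted p under 0.05, and 130 higher in SUM44 (56.6%), and 171 lower in BT483 than in SUM44 (61.9%). Both counts became 0 without either SUM44 replicate. Without BT483 replicate 1 or 2 they were 53 and 55 in SUM44 against GM06990 and 0 between the breast lines, and without GM06990 replicate 1 or 2 the SUM44 count was 202 and 61. With centring, 31 windows were lower in BT483 than in GM06990 (19.4% of all windows), 22 of them telomeric, and 4 higher (14.6%). In SUM44, 17 were lower, all telomeric (22.5% of all windows), and 22 higher (14.9%), 15 of them centromeric. In none of these 4 counts was the share of the members' windows above that over all windows.

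After centring, the windows lowest against GM06990 lay between 128750001 and 129350000 on the telomeric side, and no gene was assigned to them. The window from 128750001 to 128800000 had 433 and 2153 contacts in BT483, 1880 and 1673 in SUM44, and 1198 and 1119 in GM06990. Per 1000 trans contacts these were 1.92 and 2.76 in BT483, 7.47 and 6.52 in SUM44, and 7.42 and 3.21 in GM06990 and the replicates of GM06990 spanned a wider range than those of SUM44. After centring, the log2 difference from GM06990 was -1.11 (SE 0.18, adjusted p = 0.000319, edgeR) in BT483 and -1.05 (SE 0.18, adjusted p = 0.000203, edgeR) in SUM44. The window from 129200001 to 129250000 had 328 and 2141 contacts in BT483, 1633 and 1463 in SUM44, and 1180 and 997 in GM06990. Its centred log2 differences were -1.21 (SE 0.19, adjusted p = 0.000195, edgeR) in BT483 and -1.16 (SE 0.19, adjusted p = 0.00011, edgeR) in SUM44. The window from 129050001 to 129100000 had 287 and 1601 contacts in BT483, 1381 and 1264 in SUM44, and 925 and 802 in GM06990, with centred log2 differences of -1.20 in BT483 and -1.05 in SUM44. In BT483 the windows from 129300001 (-1.23) and 129100001 (-1.20) were the other two of the 5 lowest, and in SUM44 those from 129250001 (-1.08) and 128800001 (-1.04). Scaled to trans contacts alone, the 5 windows of SUM44 were not lower than in GM06990, with log2 differences between 0.26 and 0.41. The 5 of BT483 then had log2 differences between -1.33 and -1.18. No window of either set was called with that scaling.

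The windows that rose in SUM44 lay mostly on the centromeric side. The window from 127300001 to 127350000 had 2734 and 2412 contacts in SUM44 and 474 and 400 in GM06990, a centred log2 difference of 0.89 (SE 0.18, adjusted p = 0.000994, edgeR). Those from 127000001 and 127200001 were higher by 0.84 and 0.83, that from 132450001, on the telomeric side, by 0.73 (adjusted p = 0.00215), and that from 124850001 by 0.69 (adjusted p = 0.0167, edgeR). In BT483 the 4 higher windows were all centromeric, from 122900001 (0.84), 126200001 (0.60), 123300001 (0.57) and 125300001 (0.56). Those from 126200001 and 125300001 were also called higher in SUM44, by 0.54 (adjusted p = 0.0131) and 0.60 (adjusted p = 0.0194, edgeR). Their calls were lost without either GM06990 replicate (adjusted p between 0.0539 and 0.236, edgeR). Against SUM44, BT483 had 24 lower windows (11.8% of all windows) and 8 higher (12.5%). The lowest were 127500001 to 127700000 and the window from 127300001, with centred log2 differences between -0.88 and -0.76. The window from 127500001 had 185 and 1053 contacts in BT483 and 1509 and 1350 in SUM44 (-0.88, adjusted p = 0.000741, edgeR). The highest was that from 122900001 with 99 and 358 contacts in BT483 and 169 and 215 in SUM44 (0.74, adjusted p = 0.0297, edgeR).

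Single pairs of a member and a target fragment were described against the mean count of 8q24.21 pairs at the same distance and side in the same line, with no test. The expected count also used the member's trans count, but not fragment lengths or the member's own level of cis contacts per trans contact. In SUM44 the most centromeric block had 83.1 and 77.2 telomeric contacts per 100 trans contacts, against 56.2 and 49.1 over all members. How far the ratios depend on such levels was not tested. A pair was considered with at least 20 contacts over both replicates, which left 16 pairs in BT483, 190 in SUM44 and 8 in GM06990, of which 6, 21 and 2 exceeded 5 times the expected count. In BT483 the 5 strongest all joined fragment 14 (127889454 to 127891696), near the centromeric edge, to nearby targets between 128730921 and 128756979. The strongest was with the target from 128740188 to 128745990, 852.5 kb away. It had 32 contacts in BT483 (15 and 17 in the replicates), 10.3 times the expected count (exact Poisson 95% interval 7.06 to 14.6). The ratio was 38.8 in replicate 1 and 6.16 in replicate 2, the first of which is the shallower. The same pair had 29 contacts in SUM44, 8.97 times the expected count (6.01 to 12.9), and 17 in GM06990, 6.65 times (3.87 to 10.6), and the intervals overlapped. The lower bound of this pair was above the expected count in all 3 lines.

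In SUM44 the strongest pair joined fragment 14 to the target from 130547079 to 130548285, 2657 kb away, with 21 contacts (11 and 10), 14.6 times the expected count (9.05 to 22.4). It had 14 contacts in BT483, 11.7 times (6.42 to 19.7), and 9 in GM06990, 16.5 times (7.54 to 31.3), so the lines did not differ beyond counting error. The next 4 joined fragment 15 (127891697 to 127895194) to targets between 128714843 and 128756979, at 9.37 to 10.2 times the expected count. Of these the target from 128745991 to 128756979 had 23 contacts in SUM44 (9.37 times, 5.94 to 14.1), 11 in BT483 (5.11 times, 2.55 to 9.14) and 6 in GM06990 (2.70 times, 0.99 to 5.87). The target from 128720408 to 128721858 had 25 contacts in SUM44 (10.2 times, 6.59 to 15.0), 5 in BT483 (2.32 times, 0.75 to 5.42) and 3 in GM06990 (1.35 times, 0.28 to 3.94). At that target the interval of SUM44 lay above those of both other lines. The pair was chosen for its height in SUM44, so its intervals cannot test a difference between lines.

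GM06990 had its strongest pair at the other end of the members. Fragment 114 with the target from 128745991 to 128756979, 566.8 kb away, had 4 contacts in BT483, 1.35 times the expected count (0.37 to 3.47), 13 in SUM44, 3.74 times (1.99 to 6.40), and 20 in GM06990, 8.68 times (5.30 to 13.4). The intervals of BT483 and GM06990 did not overlap, and that of SUM44 overlapped both. Fragment 120 came next, with 10 contacts in BT483 (1.70 times, 0.82 to 3.13), 16 in SUM44 (1.12 times, 0.64 to 1.82) and 24 in GM06990 (5.55 times, 3.56 to 8.26) at the target from 128572967 to 128579913. At the neighbouring target from 128565428 to 128568949 it had 16 contacts in BT483 (2.72 times), 18 in SUM44 (1.26 times) and 20 in GM06990 (4.63 times). Fragment 117 (128186821 to 128188020) had 10 contacts in BT483, 6 in SUM44 and 24 in GM06990 with the target from 128568986 to 128570345, or 2.02, 0.65 and 3.93 times the expected count. Fragment 30 (127943488 to 127946141) gave the only centromeric pair among the 5 strongest of GM06990, 81.7 kb away at 127861717 to 127864569, with 13 contacts in BT483 (2.32 times), 22 in SUM44 (1.55 times) and 20 in GM06990 (4.32 times). Pairs are not replicates, and these were chosen for their height in 1 line, so their intervals cannot test a difference between lines.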

How the data were processed

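The authors deposited counts of read pairs per captured and target HindIII fragment and per replicate, with no normalisation, and beside them the trans count of each captured fragment. CASAVA 1.8 and the build GRCh37 (hg19) are named in the submitters' processing notes, while aligner and filters are not given in the sources used here. All 1077 captured fragments were read, of which 1075 had cis counts. The members and lists were chosen with earlier results of these data known.

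Counts were tested over all captured fragments of 6 regions with edgeR 4.0.16 (R 4.3.3), keeping features with at least 50 contacts in a line and, for trans scaling, at least 10 trans contacts in every library. Trans counts entered as offsets. The balance fit had a term per library and a side term per line. Benjamini-Hochberg adjustment ran over all features of a comparison. Fits were tested on simulated data with a fixed dispersion and no shift of whole libraries beyond their trans counts. How the fits behave under such shifts was not tested. Members were named as the 3 with the smallest adjusted p per comparison and side, the end members, the first fragment beyond, those with most and fewest trans contacts and the one with the PCAT1 position; windows as the 5 highest and 5 lowest called; pairs as the 5 highest per line. Fragment 119, the blocks of 18, the bands, the length classes and the windows' side counts were added after their values were seen. Distance bins numbered 20. DESeq2 1.42.0, limma 3.58.1, centring, cis totals, other distances and windows, and leaving out each replicate were alternatives. Tables were joined with pandas 2.3.3 in Python 3.11.15.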

Additional observations from a re-analysis of the deposited data

How the results depend on the processing

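The balance counts against GM06990 kept their direction under every alternative. Members called lower than GM06990 numbered 20 in BT483 and 27 in SUM44, against 10 and 14 with DESeq2, 8 and 12 with limma on log2 ratios, and 61 and 25 over matched distances. Leaving out 1 replicate gave 3 to 35 in BT483 (35 without BT483 replicate 1, 8 without BT483 replicate 2, 3 and 10 without GM06990 replicates 1 and 2) and 4 to 48 in SUM44 (47 and 48 without the BT483 replicates, 15 and 11 without those of SUM44, 4 and 12 without those of GM06990). BT483 against SUM44 gave 0 to 5 members higher when a replicate was left out and 1 lower over matched distances.

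Replicate numbers did not pair the samples: deviations of same-numbered libraries correlated by -0.15 to -0.01 in contacts per trans contact and -0.10 to -0.02 in balance. With the replicate block the balance counts were 17 and 28, while all trans-scaled member and window counts were 0.

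Trans-scaled counts changed with most settings. In the order SUM44 against GM06990 centromeric and telomeric, then BT483 against SUM44 centromeric and telomeric, the members called numbered 95, 54, 100 and 99. With centring they were 0, 11, 3 and 2, and with cis totals 0, 0, 0 and 0. Leaving out 1 replicate gave 0 to 103, 0 to 103, 0 to 103 and 0 to 104, with 0 whenever a BT483 or SUM44 replicate was missing. Targets at 0.8 to 5.0 Mb gave 11 for SUM44 on the telomeric side. BT483 against GM06990 gave 2 and 23 with centring, 4 and 3 with cis totals, and 0 to 40 on the telomeric side with a replicate left out (40 without GM06990 replicate 2). Windows called for BT483 against GM06990, SUM44 against GM06990 and BT483 against SUM44 numbered 0, 130 and 171, with centring 35, 39 and 32, with cis totals 85, 59 and 4, and 68 and 88 for the last 2 in 100 kb windows. Leaving out 1 replicate gave 0 to 33, 0 to 202 and 0 to 198. For these changes the cause was not tested.

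With centring and 1 replicate left out, a setting chosen after seeing the data, windows numbered 0 to 14 higher and 16 to 44 lower in BT483 against GM06990, 4 to 41 higher and 10 to 24 lower in SUM44 against GM06990, and 0 to 14 higher and 2 to 50 lower in BT483 against SUM44.

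Fragment 71, uncalled, ran between -0.32 and 0.014 in BT483 (0.0079 without BT483 replicate 2, 0.014 without GM06990 replicate 1) and between -0.33 and 0.0033 in SUM44 (0.0033 without GM06990 replicate 1) when a replicate was left out, and fragment 23 between the breast lines turned to -0.058 over matched distances. The strongest pairs stayed within their intervals with 10 bins (8.75, 21.0 and 10.3 times in BT483, SUM44 and GM06990) and with members alone behind the expected count (9.62, 12.8 and 9.97). Of the 5 strongest pairs, 10 bins kept 4, 2 and 4. At least 50 contacts left no pair in GM06990 and kept none of the 5 in the breast lines, where fragment 16 in BT483 (2.45 times) and fragment 15 in SUM44 (1.53 times) then gave the strongest pair. BT483 replicate 1 and both libraries of GM06990 had the fewest contacts of the members within 5.0 Mb. By trans contacts GM06990 replicate 2 was not among the shallowest, with 348834 over the members.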
